A study of Mus musculus with 2 samples.

Results

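Clu, Cst9, Ctsl, Serpina5 and Dhh encode proteins that Sertoli cells, the somatic nurse cells of the seminiferous tubule, release towards germ cells or neighbouring somatic cells. The genes were chosen by name, with their busulphan over control ratios in these data already known, so their own ratios are given as a description. They made up 5 of the 9438 genes compared, and their 6 probes (2 for Serpina5, 1 for each other gene) were among the 12852 probes compared. All 6 probes were well above background on both arrays and none was lost to a filter.

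RNA came from preparations labelled as isolated Sertoli cells of 3-month-old male Swiss mice (adults). The control group was untreated, and the busulphan group had received 25 mg/kg of this alkylating drug, which depletes germ cells, 1 month before. Cells were freed with collagenase and hyaluronidase, kept as what a strainer retained and lysed without culture, and the number of mice behind each preparation was not given in the labels. Each group was 1 preparation on 1 single-colour array, so no difference has a replicate check, no p-value is given, and preparation, labelling and array cannot be told apart from the group.

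As background, clusterin (Clu) is a secreted chaperone of misfolded protein and lipid, long known as a major product of Sertoli cells. Cst9 (testatin) belongs to the cystatins, most of which block cysteine proteases. Ctsl is a lysosomal cysteine protease that Sertoli cells also release. Serpina5 (protein C inhibitor) is a serpin, a suicide inhibitor of serine proteases, and male mice without it are infertile. Dhh is the hedgehog ligand of Sertoli cells and acts through the receptor Ptch1 on Leydig and peritubular cells. Other testis cells also transcribe some of these genes: Ctsl and Clu are widely expressed, and Dhh is known from the Schwann cells of nerves.

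The probes are shown because each value below is the signal of a single 60-base oligonucleotide. Positions are those of the files, on mouse build mm9, and the files do not give exon or intron status. Bases 16 to 45 of each single-stretch probe are written 5′ to 3′, and the Serpina5 junction probe is written whole because its 60 bases map across 1350 bases of genome, with a gap of 1290 bases.
Clu, chr14:66600151-66600210, plus strand: caccttcctatatgtaggagtgtctgggag
Cst9, chr2:148664344-148664403, plus strand: tgttttgcagcattgtgcagtatcaagact
Ctsl, chr13:64465287-64465346, minus strand: agtcaaaccatggtacttgaatcattgagg
Dhh, chr15:98723465-98723524, minus strand: acaatccgccacacatttgtggccaaaata
Serpina5, single-stretch probe, chr12:105344174-105344233, plus strand: aatcagggtcaaagtgtctcaccacaaaca
Serpina5, junction probe, chr12:105342063-105343412, plus strand: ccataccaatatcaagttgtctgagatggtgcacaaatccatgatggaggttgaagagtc
The probes hold 38.3% to 48.3% G and C. The longest run that any of them shares with a probe of another gene on the array was 13 bases.

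All 5 genes were higher in the busulphan library, by 7.29-fold to 39.9-fold where the ratio could be measured and by at least 5.61-fold and 9.18-fold where a saturated spot left a bound. Each of the 6 probes passed 2-fold, and each of the 5 genes passed 4-fold. Among all genes compared, 31.3% were at least 2-fold higher and 14.4% at least 4-fold higher, as were 31.6% of all probes at the 2-fold threshold. Since the genes were chosen with these ratios known, nothing is read from the count. Ratios are log2 differences of processed signals after subtracting each array's 75th percentile, busulphan minus control. The scanner software gives each spot an error of about 10% of its signal, and the error this implies for the log2 ratio of every member probe is 0.20, which covers the spot only.

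Serpina5, the serpin, had the highest measured ratio of the members. Its single-stretch probe read a processed signal of 1004 in the control and 34660 in the busulphan library, a log2 ratio of 5.32 (39.9-fold). At least 7 of all probes compared had a higher ratio, where a probe with a bound counts at that bound. The junction probe of Serpina5, which needs spliced RNA to pair over its whole length, read 144 and 4738, a log2 ratio of 5.25 (38.1-fold). In this setting the probes of Serpina5 gave ratios within 0.07 of each other on the log2 scale, below the software error, although they lie in different places of the transcript. The gap was 0.49 with normexp and 0.21 with pixel medians. No pixel of these spots was saturated on either array.

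Dhh, the hedgehog ligand, came next among measured ratios. Its signal was 796 in the control and 11372 in the busulphan library, a log2 ratio of 4.04 (16.5-fold), with at least 135 probes above it. Both spots were free of saturated pixels. On the control array the scaled log2 signals were -0.39 for Dhh and -0.06 and -2.87 for the single-stretch and junction probes of Serpina5, where 0 is the array's 75th percentile. The signals of Clu, Cst9 and Ctsl were above 0 on both arrays. Signals of different probes are not on one scale of abundance, so the word abundant was not tested.

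Cst9, the cystatin, read 9733 in the control and 61372 in the busulphan library. The log2 ratio was 2.87 (7.29-fold), and at least 700 probes had a higher one. The software did not mark its busulphan spot as saturated, yet 23 of its 66 pixels stood at the scanner's ceiling and the raw mean was 89.4% of that ceiling. With pixel medians in place of the processed signal, a choice made after the data were seen, the log2 ratio was 3.02. From raw mean to raw median the control spot moved more (8775 and 8349) than the busulphan spot (58580 and 58860.5).

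Clu and Ctsl, the chaperone and the protease, have bounds only. The Clu spot read 8565 in the control and 68019 in the busulphan library, where all 69 of its pixels were saturated. Its log2 ratio was at least 3.20 (at least 9.18-fold). The Ctsl spot read 14913 and 72423, with all 62 pixels saturated in the busulphan library, which gives a log2 ratio of at least 2.49 (at least 5.61-fold). No pixel of either spot was saturated in the control, so the lower end of both ratios is measured and the upper end is not.

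The order of the measured ratios was Serpina5, Dhh and Cst9. Serpina5 exceeded Dhh by 1.27 and Dhh exceeded Cst9 by 1.18 on the log2 scale, against a software error of 0.29 for such a difference. This order held under all 11 alternative settings. It could change only under normexp, quantile normalization and pixel medians, since the other settings shift these ratios equally or leave them as they are. Clu and Ctsl have no settled place in it, because a bound of 3.20 or 2.49 may stand for any higher value.

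**Figure D1:**
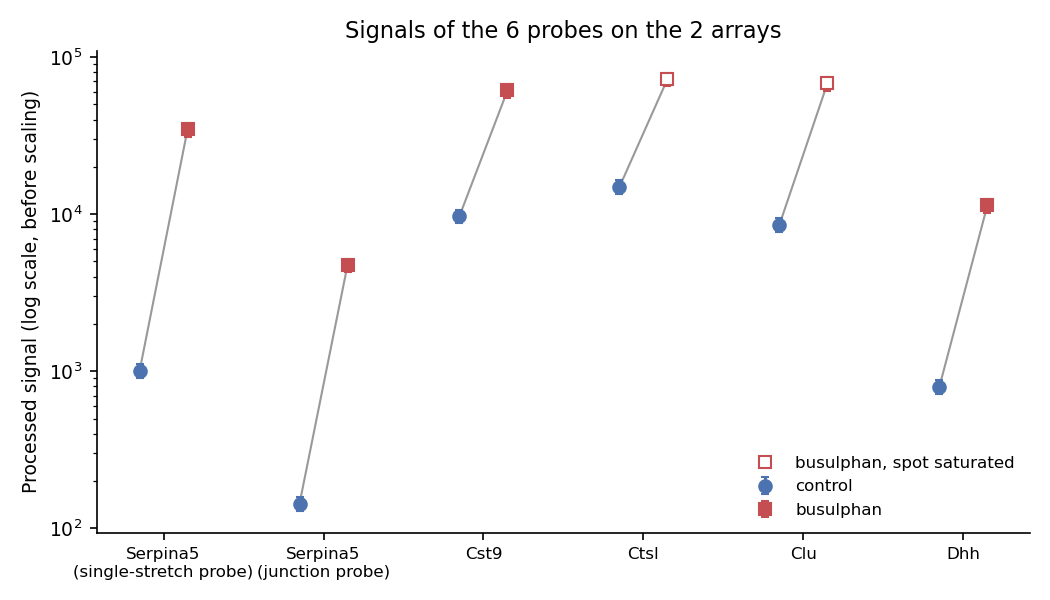
Processed signal (log axis, before scaling) of the 6 probes on the control array (blue circles) and the busulphan array (red squares, open where the spot was saturated), with the software's spot error as bars; each group is 1 array. Every line rises from control to busulphan, from 144 to 4738 for the Serpina5 junction probe, and Clu and Ctsl end at open squares of 68019 and 72423.

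**Figure D2:**
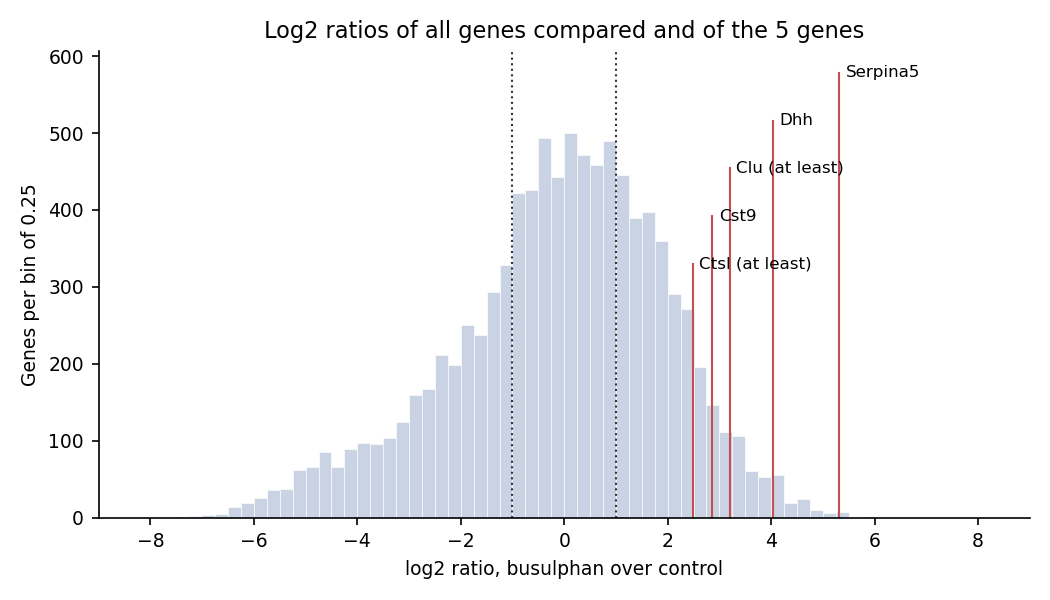
Histogram of log2 ratios (busulphan over control) of the 9438 genes compared, each by its brightest probe, in bins of 0.25; dotted lines mark 2-fold either way and red lines the 5 genes, whose height has no meaning. The genes stand from 2.49 (Ctsl, a bound) to 5.32 (Serpina5), and the median of all genes was 0.07.

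The libraries differed widely beyond these genes. The control array had 80.9% and the busulphan array 79.3% of 15208 probes well above background, 106 and 18 probes were saturated, and 29.5% of genes were at least 2-fold lower. Of called genes 51.5% were higher, a share that was 25.8% with scaling to spike-in controls, which lowers every measured log2 ratio by 0.88 and bounds by no more than that. Of 11 spermatid markers all were lower (median -5.74, summed level 560 in the control and 45.1 in the busulphan library, in units of the array's 75th percentile), with 8 control spots saturated. Of 17 spermatocyte markers 14 were lower and none higher (median -2.95, summed level 352 and 53.0). Of 9 markers of spermatogonia 2 were higher and 1 lower (median -0.39, 0.36 with no filter on dim probes). With spike-in scaling none of them was higher and 5 were lower (median -1.27), beside 1525 and 4380 of all 9438 genes (median -0.81). In bulk RNA, fewer cells of a type and less RNA per cell cannot be told apart, and the part of this germ cell difference in the members' ratios was not tested.

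Markers of Sertoli cells that are not secreted were measured beside the members. Of 14 compared, all above background on both arrays, 11 were higher and none lower, beside 31.3% of all genes higher and 29.5% lower. The median log2 ratio was 3.33, the range ran from -0.06 (Krt18) to 5.46 (Sox8), and the summed level was 22.2 in the control and 80.2 in the busulphan library. In this setting Sox8 alone had a higher ratio than Serpina5, which stood 1.99 above the marker median. The Sox8 probe used read 17.2 in the control, and the other Sox8 probe gave 3.19. Other probes of Sox9 gave 2.24 and 4.96, beside 5.12 for the one used. The other probe of Gata4 gave 3.52, beside 0.73. Dhh stood 0.72 above that median, with 4 markers above it. Cst9 differed from the median by -0.46, with 8 markers above it. The bounds of Clu and Ctsl lay at -0.13 and -0.84 from the median. The measured ratios of Serpina5, Dhh and Cst9 lay within the range of the Sertoli cell markers. The bounds of Clu and Ctsl do not place these genes in it. That range is wide and also holds the median of all genes, 0.07, so no likeness is read from it.

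Cells other than Sertoli cells can hold these transcripts. Macrophage markers had a median of 2.52, and 10 of the 16 compared were higher and 3 lower, beside 31.3% and 29.5% of all genes. The median was 1.23 with normexp, 1.57 by the median over probes and 1.64 with spike-in scaling. Their summed level was 63.7 in the control and 10.3 in the busulphan library, with Aif1 at signals of 62716 (saturated) and 1230. Without Aif1 the sum of the other 15 was 3.76 and 8.94. The highest macrophage markers were Trem2 (log2 5.30), C1qc (4.03) and Mrc1 (3.61), Trem2 standing at 3.14 with normexp. The 3 lower ones were Aif1 (log2 at most -5.46), Fcgr3 (1950 and 127, log2 -3.74) and Msr1 (562 and 36.7, log2 -3.73, other probe -2.46). Of 10 Schwann cell and nerve markers 4 were higher and 3 lower (median 0.03, or -0.85 with spike-in scaling), with a summed level of 6.70 and 14.9. Without Egr2 (1259 and 8777), also an immediate early gene, the sum of the other 9 was 5.50 and 5.15. Their part in the ratios of Ctsl, Clu and Dhh was not tested.

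The remaining marker lists had medians between -0.21 and 1.13, beside 0.07 over all genes, of which 31.3% were higher and 29.5% lower. Leydig cell markers stood at 1.13 (0.25 with spike-in scaling), where 6 of 12 were higher and 1 was lower. Of 7 peritubular myoid markers 3 were higher and none lower (median 0.90). With spike-in scaling 0 of them were higher and 1 was lower (median 0.02). The higher ones included Ptch1, also in the hedgehog list below, and Cald1, whose other probe gave -0.27. Acta2 had 0.34, with 0.86 and 1.70 by its other probes. Of 13 endothelial markers 2 were higher and 3 lower (median -0.21). With spike-in scaling 1 endothelial marker was higher and 7 were lower (median -1.09), beside 1525 and 4380 of all 9438 genes (median -0.81). Both epididymal markers compared lay within 2-fold (median -0.13, turning to 0.16 with normexp). Housekeeping genes, 6 of 16 higher and 4 lower, had a median of 0.35 that turned to -0.47 with spike-in scaling.

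Dhh belongs to a pathway in which its receptor Ptch1 holds back the membrane protein Smo until ligand binds, and Smo then acts through Gli transcription factors. Ptch1, Hhip and Gli1 are also textbook targets of the pathway. Over all genes compared, 31.3% were higher and 29.5% lower. Among 16 other hedgehog genes compared, 5 were higher, 5 were lower and 6 lay within 2-fold. With spike-in scaling 1 was higher and 5 were lower, beside 1525 and 4380 of all 9438 genes. With normexp 3 were higher and 3 lower, beside 2323 and 2139 of all genes. The hedgehog genes had a median log2 ratio of 0.59, which turned to -0.29 with spike-in scaling, where that of all genes was -0.81. Dhh, at 4.04, was above each of the 16 other hedgehog genes.

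Among receptors and targets, Hhip, a decoy that binds hedgehog ligands, read 118 and 380, a log2 ratio of 1.90, with 1.41 by its other probe. Ptch1 read 90.3 and 265, a log2 ratio of 1.76, with 1.09 by its other probe and 0.88 for the brighter probe with spike-in scaling. The co-receptor Gas1 had a log2 ratio of 1.30 and Smo one of 1.03, with 0.39 by the other Smo probe. Gli1, the transcription factor that serves as a readout of the pathway, read 96.8 and 104, a log2 ratio of 0.32. Gli2 (0.91, its other probe -0.71) and Gli3 (0.78) were also within 2-fold. The log2 ratios of Gas1, Smo, Gli1 and Gli3 were 0.42, 0.14, -0.57 and -0.10 with spike-in scaling, so the first pair lay within 2-fold there and the latter pair turned sign.

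The low end of the list was set by intracellular regulators. Sufu, the inhibitor that holds Gli proteins in the cytoplasm, read 8130 in the control and 94.2 in the busulphan library, a log2 ratio of -6.22. Its other probe gave -5.75. Stk36, a kinase related to the Fused protein of flies, had -5.07, with its other probes between -4.76 and -3.18. Both ratios lie in the wide range of the spermatid markers, from at most -1.83 to -7.29 (median -5.74), so nothing is read from this placing. What germ cell RNA contributed to the ratios of Sufu and Stk36 was not tested. The other ligands were dim: Shh was above background in the control only (log2 at most -1.41), and Ihh read 10.4 and 9.80.

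**Figure D3:**
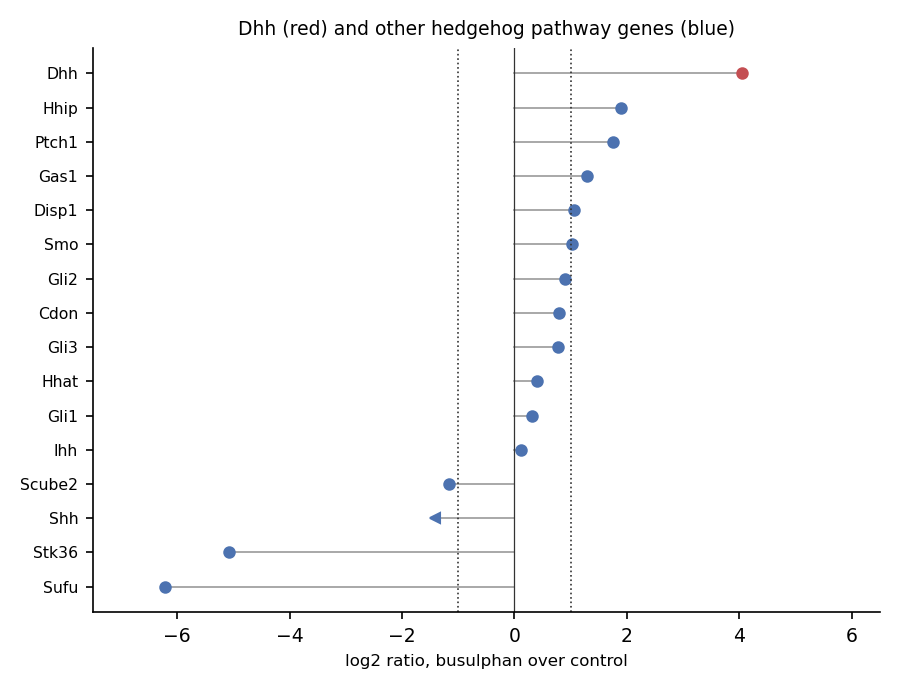
Log2 ratio (busulphan over control) of Dhh (red) and 15 of the other hedgehog pathway genes (blue), each by its brightest probe; triangles are bounds and dotted lines mark 2-fold either way. Dhh stands at 4.04, Hhip and Ptch1 follow at 1.90 and 1.76, and Stk36 and Sufu stand lowest at -5.07 and -6.22.

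Cathepsins and related genes were mostly higher, as Ctsl was. In all, 10 of 15 compared were higher, 1 was lower and 4 lay within 2-fold, beside 31.3% of all genes higher and 29.5% lower. The median of the 15 was 1.79. With spike-in scaling it was 0.91, and 7 were higher and 5 lower, beside 1525 and 4380 of all 9438 genes. Legumain (Lgmn), which processes cathepsins in the lysosome, read 1098 and 19588, a log2 ratio of 4.37. Ctss, a cathepsin of antigen-presenting cells, read 130 and 943 (log2 3.06), and Ctsa, a serine carboxypeptidase, 548 and 3909 (log2 3.04). The low end held dim genes: Tinagl1 (31.5 and 12.9, log2 -1.08), the neutrophil protease Ctsg (16.3 and 7.08, log2 -0.99) and Ctse (53.1 and 24.4, log2 -0.91). With normexp, which shrinks ratios of dim spots, Tinagl1 had -0.16.

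Cystatins, the family of Cst9, had fewer genes on the array. The median of the 6 compared, of which 4 were higher and 2 within 2-fold, was 1.69 (0.81 with spike-in scaling). Across the array, 31.3% of the genes compared were higher. Fetuin A (Ahsg) read 44.6 and 467 (log2 3.60), and the cytosolic inhibitor Cstb read 553 and 2922 (log2 2.61). Cst3, a secreted cystatin whose probe lies 33.3 kb from that of Cst9, read 6000 and 18149, a log2 ratio of 1.81. Cst6 had 1.58, Cstad 0.92 and the plasma protein Hrg -0.87. Cst9 at 2.87 stood between Ahsg and Cstb.

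Serpins of clade A, the family of Serpina5, held genes of either direction. Of 8 compared, 4 were higher, 3 lower and 1 within 2-fold, beside 31.3% of all genes higher and 29.5% lower. The median of the 8 serpins, 0.96, turned to -0.64 when dim and saturated probes were left out. Serpina3n read 225 and 2298 (log2 3.56) and Serpina3g 23.6 and 101 (log2 2.31), and Serpina3b had at least 2.19, or 0.58 with normexp. At the low end stood Serpina7, the thyroxine carrier (log2 -3.66, and -1.17 with normexp), Serpina1d, an antitrypsin copy (735 and 65.9, log2 -3.27), and Serpina9 (log2 -2.45, and -0.64 with normexp). Several of these genes have near-identical copies, which a probe may not tell apart, so their values are uncertain.

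Proteases that Serpina5 is known to inhibit, listed with their receptors and cofactors, held genes of opposite direction. Of 16 compared, 7 were higher, 8 lower and 1 within 2-fold, beside 31.3% of all genes higher and 29.5% lower. The median of -0.48 turned to 0.13 when dim and saturated probes were left out, and to 0.04 with normexp. Higher genes included the plasminogen activator Plau (15.7 and 254, log2 4.22, but 1.47 by its other probe), its receptor Plaur (69.8 and 698, log2 3.53) and protein S (Pros1, 564 and 4672, log2 3.26). Lower genes included Klk1, a tissue kallikrein (774 and 8.62, log2 -6.28), protein C itself (Proc, 2686 and 53.4, log2 -5.44) and acrosin (Acr, 7000 and 156, log2 -5.28), the protease of the sperm acrosome. The ratios of Acr, Proc and Klk1 lay within the range of the spermatid markers, from at most -1.83 (Prm1) to -7.29 (Tssk6). That range is wide and 8 of its 11 values are bounds, so nothing is read from this placing. The part of germ cell RNA in the ratios of Acr, Proc and Klk1 was not tested.

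**Figure D4:**
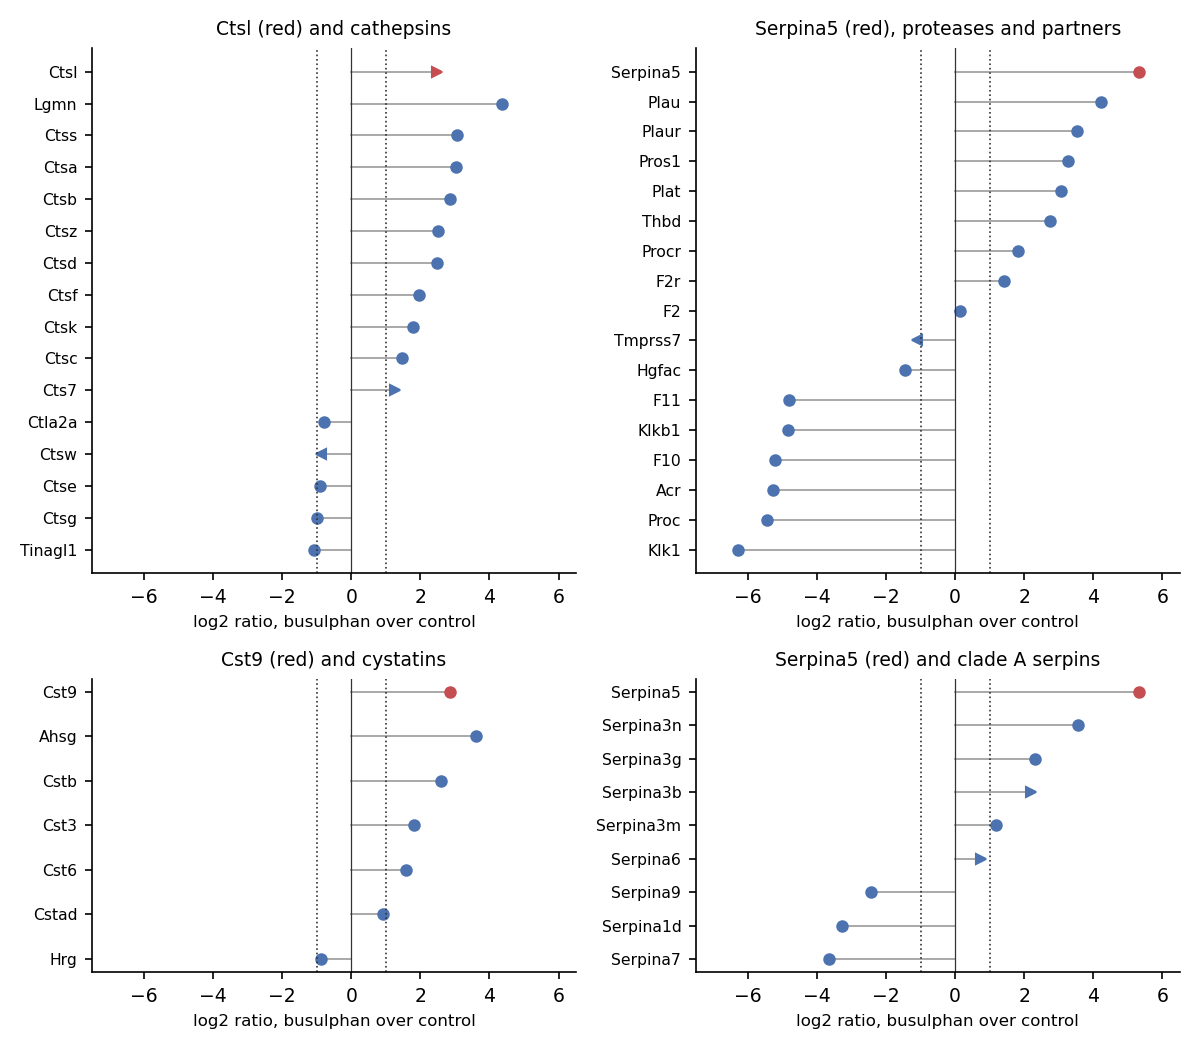
Log2 ratios (busulphan over control) of Ctsl, Cst9 and Serpina5 (red) beside the related genes compared (blue), each by its brightest probe, in 4 panels; triangles are bounds and dotted lines mark 2-fold either way. Most cathepsins and cystatins stand right of 0, while the partners of Serpina5 run from 4.22 (Plau) to -6.28 (Klk1).

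Of the receptors and partners of clusterin, more were higher than lower. Of 14 compared, 8 were higher and 2 lower, beside 31.3% of all genes higher and 29.5% lower. The median of the 14 was 1.05. It was 0.66 with normexp and 0.17 with spike-in scaling, and under either 5 were higher and 2 lower. Of all 9438 genes, 2323 were higher and 2139 lower with normexp, and 1525 and 4380 with spike-in scaling. Trem2, a myeloid receptor that binds clusterin and is also one of the macrophage markers above, read 13.9 and 476 (log2 5.30). Lrpap1, a chaperone of the endoplasmic reticulum, had 2.56 (2428 and 12408), and Apoe, an apolipoprotein, 2.10 (4009 and 14899). Lrp2 (megalin), the endocytic receptor of clusterin in epithelia, was lower, at 449 and 47.6 (log2 -3.03, other probe -1.41). Lrp8, a clusterin receptor of the epididymis and brain, was lower too, at 652 and 198 (log2 -1.51, other probe -0.94), and haptoglobin (Hp) had -0.03.

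Other secreted products known from Sertoli cells went mostly the way of the members. The median of the 31 compared was 2.41, and 26 were higher, 1 lower and 4 within 2-fold (the median was 1.53 with spike-in scaling). Among all genes compared, 31.3% were higher and 29.5% lower. Wnt4 had at least 4.66, the activin antagonist Fst 4.45 and Il1a 4.41, values that were 2.03, 2.90 and 2.60 with normexp. The lowest were Pdgfa (6302 and 2234, log2 -1.29), Igf1 (-0.64, its other probes from -2.80 to -0.24) and Gas6, a ligand of the receptors that bind dying cells (14520 and 10184, log2 -0.30, turning to 0.49 with quantile normalization).

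The genes next to the members on the chromosome held ratios of either direction, beside 31.3% of all genes higher and 29.5% lower. Within 500 kb, 4 of 9 neighbours of Clu were higher and 2 lower, from -4.34 (Adam2) to 3.93 (Scara3). Gulo, whose probe lies 5.68 kb from that of Clu, had 0.09. Of 7 neighbours of Cst9 2 were higher (Cst3 and Thbd) and 1 lower (Nxt1, -3.10), and of 5 neighbours of Ctsl 1 was higher and 3 lower (median -1.35). Serpina5 lies in a cluster of serpins, and of its 8 neighbours 4 were higher, all of them Serpina3 genes, and 3 lower. Of 23 neighbours of Dhh 8 were higher and 4 lower (median 0.23). The nearest on either side, Rhebl1 and Lmbr1l, had 0.87 and -2.60.

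Sequence before the gene start was available from RefSeq (GRCm38.p6) for 4 of the 5 members, named Cst9, Ctsl, Serpina5 and Dhh. The 250 bases of Serpina5 and Dhh, the members with the highest measured ratios, are shown, with motif matches in capitals.
Serpina5, chr12:104100863-104101112, plus strand: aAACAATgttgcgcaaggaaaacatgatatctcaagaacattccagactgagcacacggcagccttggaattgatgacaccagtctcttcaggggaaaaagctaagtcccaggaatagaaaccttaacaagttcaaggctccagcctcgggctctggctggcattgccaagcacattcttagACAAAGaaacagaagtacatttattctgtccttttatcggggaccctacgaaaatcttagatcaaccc
Dhh, chr15:98898541-98898790, minus strand: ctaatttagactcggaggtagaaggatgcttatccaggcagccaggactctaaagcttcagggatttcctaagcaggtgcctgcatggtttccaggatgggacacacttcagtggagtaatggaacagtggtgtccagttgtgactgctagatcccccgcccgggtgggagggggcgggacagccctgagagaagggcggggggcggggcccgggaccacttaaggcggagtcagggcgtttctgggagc
Both strands were searched for the SOX motifs ACAAAG and AACAAT, the SF1 motif CAAGGTCA, the GATA motif AGATAA, the AP-1 motif TGACTCA, the CRE TGACGTCA, the E-box CACGTG and TATAAA. No 2 of these overlap in the sequences shown.

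Serpina5 held AACAAT at -249 and ACAAAG at -68, counting bases upstream of the gene start as negative. Cst9 held ACAAAG on the reverse strand at -152. Ctsl held CACGTG at -236 and AACAAT on the reverse strand at -143. Dhh held none of the motifs. Of all 32851 promoters of the same length, 16.5% held ACAAAG, 9.42% AACAAT and 6.02% CACGTG. The other shares were 1.33% for CAAGGTCA, 9.99% for AGATAA, 4.46% for TGACTCA, 1.55% for TGACGTCA and 12.4% for TATAAA. The window of Dhh held 59.6% G and C, that of Cst9 45.6%, that of Ctsl 47.2% and that of Serpina5 44.8%, beside a median of 52.4% over all promoters. A match describes letters and is not a binding site.

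For the 3 members with measured ratios, the genes with the nearest log2 ratio were listed, a likeness that rests on a single difference between 2 arrays. For Serpina5 these were Trem2 (5.30), the kinesin Kif21a (5.34) and the growth factor binding protein Igfbp3 (5.36). For Dhh they were Prph2 (4.05), the apoptosis inhibitor Birc3 (4.04) and the metalloprotease Mmp23 (4.05). For Cst9 they were the receptor Igf1r (2.86), the sugar enzyme Pgm3 (2.86) and the mitochondrial protein Tspo (2.86).

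The ratios of the members kept their direction and stayed past 2-fold under each of 10 alternatives for Clu and Ctsl and 11 for the other probes. The lowest value of each came with spike-in scaling: 4.44 and 4.37 for the Serpina5 probes, 3.16 for Dhh, 2.32 for Clu, 1.98 for Cst9 and 1.61 for Ctsl, the values of Clu and Ctsl being bounds. Under that scaling the ratio of Cst9 and the bound of Ctsl were below 4-fold. The highest values came with quantile normalization and ran from 2.76 (Ctsl, a bound) to 5.64 (Serpina5).

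**Figure D5:**
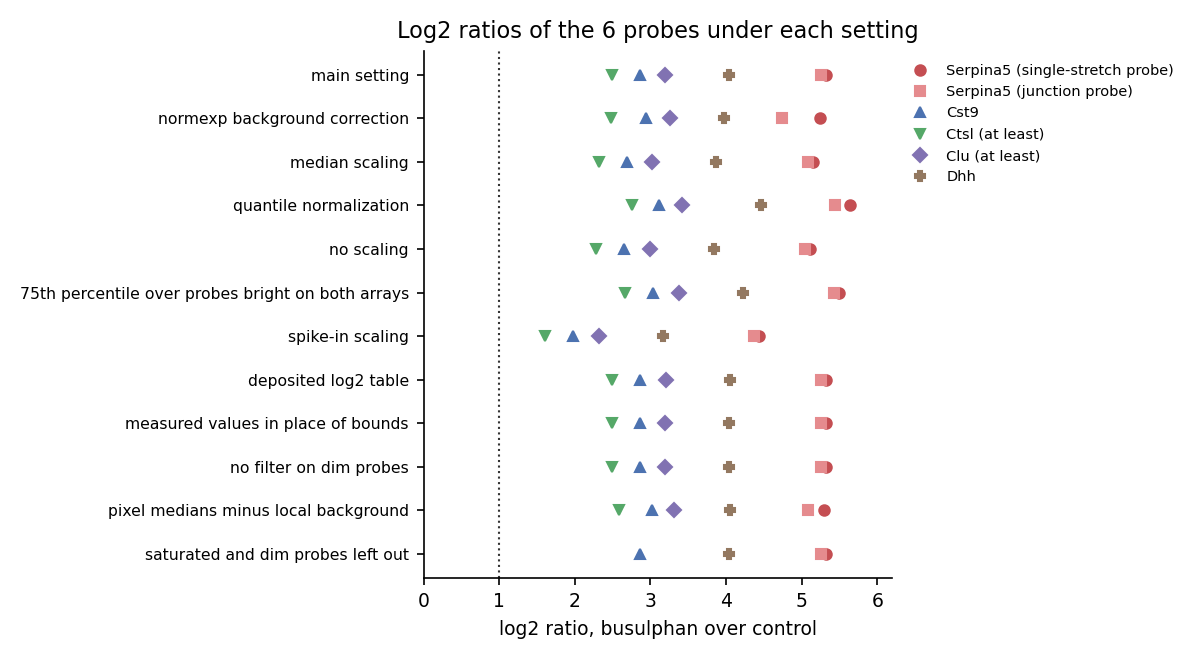
Log2 ratio (busulphan over control) of the 6 member probes under the main setting and each alternative; the dotted line marks 2-fold and Clu and Ctsl are bounds. All points lie right of the line, the leftmost being Ctsl at 1.61 with spike-in scaling, and the 2 saturated probes have no point where saturated spots were left out.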

How the data were processed

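Per the file headers, the authors obtained intensity values from 1 Cy3 channel with Agilent Feature Extraction (11.5.1.1), as background-subtracted and detrended signals. The authors' deposited log2 table equals log2 of that signal minus a constant per array (10.03 and 9.82), close to its 75th percentile, so no scale or centring is unknown; its medians were -2.94 and -2.77.

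Of 15744 spots 536 were controls and 4 probes marked as outliers were left out. Values here are log2 of the processed signal minus the 75th percentile over non-control probes (signals of 1046 and 905). Probes not well above background on either array were dropped. A spot dim or saturated on 1 array gives a bound: for a saturated spot its own value, for a dim spot the higher of its signal and the lowest signal well above background on that array. This applied to 1034 genes. A gene took its brightest probe and was called at a log2 ratio of 1 either way. Symbols came from accessions in a RefSeq table for 13300 probes, and 1908 kept the file's name.

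The members, lists and alternatives were chosen with earlier results of these data known. Named genes are all members, the 3 highest and 3 lowest of each pathway list, Ptch1, Gli1, Gli2, Gli3, Hhip and Smo, and at most 3 highest and lowest markers; Ihh, Egr2 and chromosomal neighbours were named after their values were seen. Alternatives were normexp (limma 3.58.1), 5 scalings, other treatments of bounds and dim probes, the deposited table, other thresholds, medians over probes and, chosen after seeing the data, pixel medians. A few genes within these rules are not reported here. The protein comparison was not made, as no protein table was used here. The rule for bounds and the 2-fold call of single probes were run on simulated data. That simulation did not cover the scaling or the counts of genes and lists. Spike-in scaling used 6 control probes of 20 spots each, whose spot SD was 0.07 and 0.06 (log2).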

Additional observations from a re-analysis of the deposited data

How the results depend on the processing

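No paired analysis was possible because each group holds 1 sample. Each member probe stayed past 2-fold under every alternative that gave it a value; the count was 4 where saturated and dim probes were left out, since Clu and Ctsl then have none. The count of all genes at least 2-fold higher, 2952, was 1525 with spike-in scaling and 1360 at a 4-fold threshold, and that of lower genes, 2784, was 4380 and 1674; a higher threshold calls fewer genes by construction, and spike-in scaling shifts every measured ratio by -0.88. The median over all genes moved from 0.07 to -0.81 with spike-in scaling, to 0.24 with the 75th percentile of bright probes, to 0.18 with quantile normalization, to -0.10 with median scaling and to -0.14 with no scaling. Jag1, one of the other secreted products, was 1.57 by its brightest probe and -1.43 by the median over its probes, since its other probe gave -4.43. Of 102 genes in the pathway lists, 59 kept their call under all alternatives and 43 changed it under at least 1. Saturation limits Clu and Ctsl to bounds and partly compresses Cst9, and 1 array per group leaves every ratio without a measure of biological spread.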
